A study of Mus musculus with 20 samples.

Results

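Here the LSK cells of Dnmt3a-/- mice were compared with the LSK cells of wild type (WT) mice. LSK cells are the Lin-/Sca1+/Kit+ fraction of bone marrow (BM), which holds the hematopoietic stem cells and the multipotent progenitors. The comparison used the 3 Dnmt3a-/- and the 3 WT libraries named by genotype and cell type in the labels, 6 of the 20 libraries of the study. All 6 mice were C57BL/6, each library came from a different mouse, and the table's column names mark the animals as XY. The study crossed conditional knockout mice with Mx1-Cre transgenic mice, whose recombinase is switched on by interferon and was induced with pIpC, and used mice with untargeted genes as WT. The age of these mice at sorting, and whether the WT mice of the RNA-seq carried Mx1-Cre or received pIpC, are not given in the sources used here, so loss of Dnmt3a cannot be told apart from Cre or pIpC exposure. The column names read Cre for the Dnmt3a-/- libraries and WT in its place for the WT libraries. Both groups carry 3A in these names, where the Bcor-/- libraries carry WT, and what 3A means for the WT mice is not given. The column names thus mark the groups as sharing 3A and differing in the Cre position. They do not say whether the WT mice lacked the transgene. The other libraries are LSK cells of Bcor-/- and Bcor-/- Dnmt3a-/- mice and, from the mice of every genotype, megakaryocyte-erythroid progenitors (MEP). The study describes excision of Dnmt3a in these single knockouts as incomplete, so the libraries may hold RNA of cells that kept the gene. The question the comparison addresses is how the RNA of the stem and progenitor compartment differs between mice with targeted Dnmt3a alone and WT mice, before a second lesion is added.

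Dnmt3a is a de novo DNA methyltransferase: it adds methyl groups to cytosines of CpG dinucleotides that were unmethylated, while Dnmt1 copies existing marks at replication. In blood stem cells its loss is known to favour self-renewal over differentiation, and mutations of the human gene are common in clonal hematopoiesis and acute myeloid leukemia. Many regulatory genes have CpG-rich promoters that are free of methylation in most cells, whereas genes of mature blood cells often have CpG-poor promoters.

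RNA levels were deposited as FPKM, fragment counts scaled by transcript length and library size. Of 24315 table rows, 11615 averaged 1 FPKM or more across these libraries and were tested with limma on log2(FPKM + 1), a scale on which fold changes of low genes are understated. A gene was called when its unadjusted p was below 0.05 and it differed more than 1.5-fold, and the adjusted p over all tested genes is given beside it. The libraries were close to each other, with Pearson's r of log2 values across genes from 0.964 to 0.980 and, from the spacing of the lowest FPKM values, relative depths of 0.81 to 1.13 against WT replicate 1. Counts were not used here, so absolute depth is unknown. The markers of the sort were present in all 6 libraries: Kit was at 148 to 184 FPKM, Ly6a (Sca1) at 52.7 to 70.7, Cd34 at 548 to 650.1 and Flt3 at 196 to 248. None of the 13 tested genes of the LSK gate list was called, where 0.947% of all tested genes were in either direction, so the count says little about these genes. Genes of other lineages ranged from near 0 to high: Cd3e lay between 0 and 0.517 FPKM and Itgam between 13.1 and 27.8, while S100a9 of neutrophils was at 527 to 3736 FPKM and Lyz2 of myeloid cells at 214 to 602. WT replicate 2 stood apart. Its summed FPKM over the mature neutrophil markers was 10678 against 2265 and 2044 in the other WT libraries, over the macrophage markers 922 against 468 and 294, and over the B and plasma cell markers 1869.6 against 644 and 600.0.

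The targeted gene itself was not called at the level of whole-gene RNA. Dnmt3a was at 19.8, 16.1 and 17.2 FPKM in WT replicates 1 to 3 and at 16.9, 14.0 and 11.3 FPKM in the Dnmt3a-/- replicates. The 2 groups overlapped, because Dnmt3a-/- replicate 1 exceeded WT replicate 2. The log2 fold change was -0.32 with a standard error (SE) of 0.15 (limma p = 0.0548, adjusted p = 0.98), and the two-sided exact permutation test of the FPKM values over the samples gave p = 0.2, where 0.1 is the smallest it can give. The log2 fold change was -0.19 without Dnmt3a-/- replicate 3, -0.45 without Dnmt3a-/- replicate 1 and -0.43 with array weights, below 0 and short of the fold threshold in all 15 alternatives run. A gene-level FPKM does not resolve deleted exons and so does not test the deletion. In MEP cells of the same mice, a table normalized separately, Dnmt3a was at 6.11, 5.49 and 6.64 FPKM in WT and at 5.40, 2.97 and 2.56 FPKM in Dnmt3a-/-, which did not overlap, as for 5.16% of all MEP genes in that direction (log2 fold change -0.65, limma adjusted p = 0.85), and it was called lower there at an unadjusted limma p of 0.0189.

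None of the 28 tested genes of the DNA methylation machinery was called in LSK cells, where 0.947% of all genes tested were called in either direction, and their median log2 fold change was -0.021. The absence of calls says little about a list of this size. Of the 28 genes, 4 did not overlap in the lower direction (4.91% of all tested genes) and none in the higher (4.67%). Dnmt1, the maintenance enzyme, was at 102, 112.2 and 104 FPKM in WT and 113, 94.9 and 107 FPKM in Dnmt3a-/-. Dnmt3b, the other de novo enzyme, was at 34.3, 28.4 and 30.3 FPKM in WT and 36.0, 32.7 and 32.1 FPKM in Dnmt3a-/-. Both overlapped between the groups, as did Bcor at 29.5 to 32.4 FPKM in WT and 30.1 to 35.8 FPKM in Dnmt3a-/-.

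Across all tested genes the differences were few. Of 11615 genes, 61 were called higher in Dnmt3a-/- LSK cells (0.525%) and 49 lower (0.422%), and 78 of these 110 genes did not overlap between the groups (42 higher, 36 lower). At p under 0.05 and any fold there were 500 genes (4.3%), fewer than the 580.75 that a threshold of 0.05 passes by chance, and the groups did not overlap for 4.67% of all tested genes in the higher direction and 4.91% in the lower. Only 9 genes (0.0775%) reached an adjusted p under 0.05 in limma. Of these, 8 were higher: Klf2, Klf6, Rhob, Jun, Jund, Spry1, Moap1 and Snora64. When all 10 LSK libraries of the 4 genotypes were fitted together, 161 genes had p under 0.05 at any fold and no adjusted p was under 0.05.

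**Figure D1:**
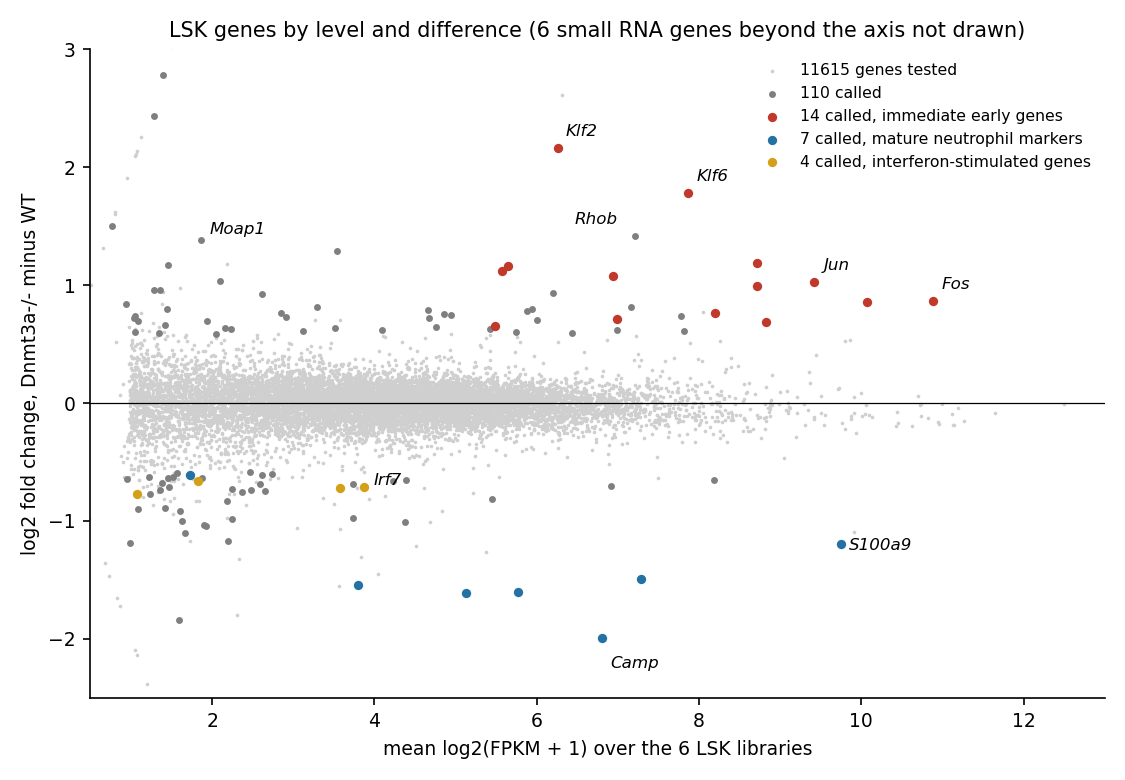
Each of the 11615 tested genes is drawn by its mean log2(FPKM + 1) over the 6 LSK libraries (x axis) and its log2 fold change, Dnmt3a-/- minus WT (y axis); 6 small RNA genes lie beyond the axis. Most genes lie close to 0, the 14 called immediate early genes sit in the upper right at high levels, and the 7 called neutrophil markers sit below 0.

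The genes that rose were led by immediate early genes, which cells transcribe within minutes of a stimulus from promoters that need no new protein, and which encode the AP-1 factors Fos and Jun, zinc finger factors of the Klf and Egr families, and phosphatases and RNA decay factors that end the response. Of 40 listed genes 34 were tested; 14 were called higher and none lower, against 0.525% of all tested genes called higher. All 34 had a log2 fold change above 0, against 51.4% of all tested genes, and their median was 0.51 against 0.0042. For 16 of the 34 all 3 Dnmt3a-/- libraries exceeded all 3 WT libraries, as for 4.67% of all tested genes. The list was chosen with earlier results of these data known, so its direction is a description. The FPKM summed over the list was 8585, 5948 and 6779 in the WT libraries and 11885, 11953 and 11624 in the Dnmt3a-/- libraries.

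Klf2, a zinc finger factor tied to quiescence and migration of lymphocytes, had the largest fold change of the protein-coding genes with an adjusted p under 0.05. It was at 34.1, 40.8 and 31.2 FPKM in WT and at 168, 198 and 125 FPKM in Dnmt3a-/-. The lowest Dnmt3a-/- library lay far above the highest WT library, a log2 fold change of 2.16 (SE 0.16, limma adjusted p = 0.00221), or 4.48-fold on the log2(FPKM + 1) scale. Klf6, a related zinc finger factor, was at 140.2, 104 and 134 FPKM in WT and at 442, 519 and 349.9 FPKM in Dnmt3a-/-, also without overlap (log2 fold change 1.78, SE 0.16, limma adjusted p = 0.00448). Klf4, another member of the family, which drives monocyte differentiation, was at 42.4, 25.3 and 28.4 FPKM in WT and at 64.5, 70.0 and 73.6 FPKM in Dnmt3a-/- (log2 fold change 1.12, limma adjusted p = 0.0671). The RefSeq promoter windows of Klf2 and Klf6, 250 bases before to 50 after the start, are shown because these genes rose most of the genes that passed the adjusted threshold and have a promoter entry; capitals mark CpG dinucleotides, the sites Dnmt3a can methylate. The Klf2 window is chr8:72318812-72319111 on the plus strand and the Klf6 window chr13:5861239-5861538 on the plus strand, both of build GRCm38.p6.
Klf2: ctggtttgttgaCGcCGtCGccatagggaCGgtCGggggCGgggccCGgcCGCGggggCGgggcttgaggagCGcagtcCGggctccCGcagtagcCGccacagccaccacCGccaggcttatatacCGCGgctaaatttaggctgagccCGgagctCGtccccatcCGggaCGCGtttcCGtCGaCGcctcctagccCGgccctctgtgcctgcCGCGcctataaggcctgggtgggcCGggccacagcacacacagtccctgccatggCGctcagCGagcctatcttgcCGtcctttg
Klf6: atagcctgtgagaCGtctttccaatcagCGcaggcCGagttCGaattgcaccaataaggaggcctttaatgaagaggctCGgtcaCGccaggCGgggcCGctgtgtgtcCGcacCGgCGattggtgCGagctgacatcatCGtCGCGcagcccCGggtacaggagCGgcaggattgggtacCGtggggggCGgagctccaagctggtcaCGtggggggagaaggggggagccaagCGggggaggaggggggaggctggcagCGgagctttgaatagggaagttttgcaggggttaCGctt
The Klf2 window holds 32 CpG and the Klf6 window 23, where the median window of all tested genes holds 21.

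Of the AP-1 subunits, Jun, Jund, Fos and Fosb were called higher, Jun and Jund with an adjusted p under 0.05, and Junb and Fosl2 were not called. Jun was at 481, 461 and 487 FPKM in WT and at 1045, 952 and 918 FPKM in Dnmt3a-/-. The WT libraries were nearly equal and every Dnmt3a-/- library was well above them (log2 fold change 1.02, SE 0.096, limma adjusted p = 0.00448). Jund was at 78.8, 79.2 and 93.1 FPKM in WT and at 189, 145 and 202 FPKM in Dnmt3a-/- (log2 fold change 1.08, SE 0.13, limma adjusted p = 0.0329). Fos, the partner of Jun and the most abundant member, was at 1582, 1243 and 1407 FPKM in WT and at 2747, 2589.9 and 2353 FPKM in Dnmt3a-/- (log2 fold change 0.87, limma adjusted p = 0.085). Fosb was at 428, 197 and 253 FPKM in WT and at 685, 606 and 616 FPKM in Dnmt3a-/- (log2 fold change 1.19, limma adjusted p = 0.32). None of these 4 genes overlapped between the groups. Junb was at 190.5, 173 and 178 FPKM in WT and 231, 191 and 297 FPKM in Dnmt3a-/-, no overlap but a fold change under the threshold (log2 fold change 0.39), and Fosl2 overlapped.

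Dusp1, Zfp36 and Btg2 were also called, none with an adjusted p under 0.05. Dusp1, a phosphatase that inactivates MAP kinases, was at 289, 298 and 302 FPKM in WT and at 647, 687 and 465 FPKM in Dnmt3a-/- (log2 fold change 0.99, limma adjusted p = 0.062). Zfp36, which binds AU-rich messages and speeds their decay, was at 906, 732 and 765 FPKM in WT and at 1504, 1566 and 1288 FPKM in Dnmt3a-/- (log2 fold change 0.86, limma adjusted p = 0.0671). Btg2, an antiproliferative factor, was at 125, 82.7 and 91.2 FPKM in WT and at 143, 195 and 149.9 FPKM in Dnmt3a-/- (log2 fold change 0.71, limma adjusted p = 0.63). No library of one genotype reached into the range of the other for these 3 genes. Ier2 and Ier5, early response genes with less known roles, had log2 fold changes of 0.77 and 0.65, and Atf3, a stress factor of the ATF family, 1.16, all without overlap and with limma adjusted p of 0.052, 0.14 and 0.27.

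**Figure D2:**
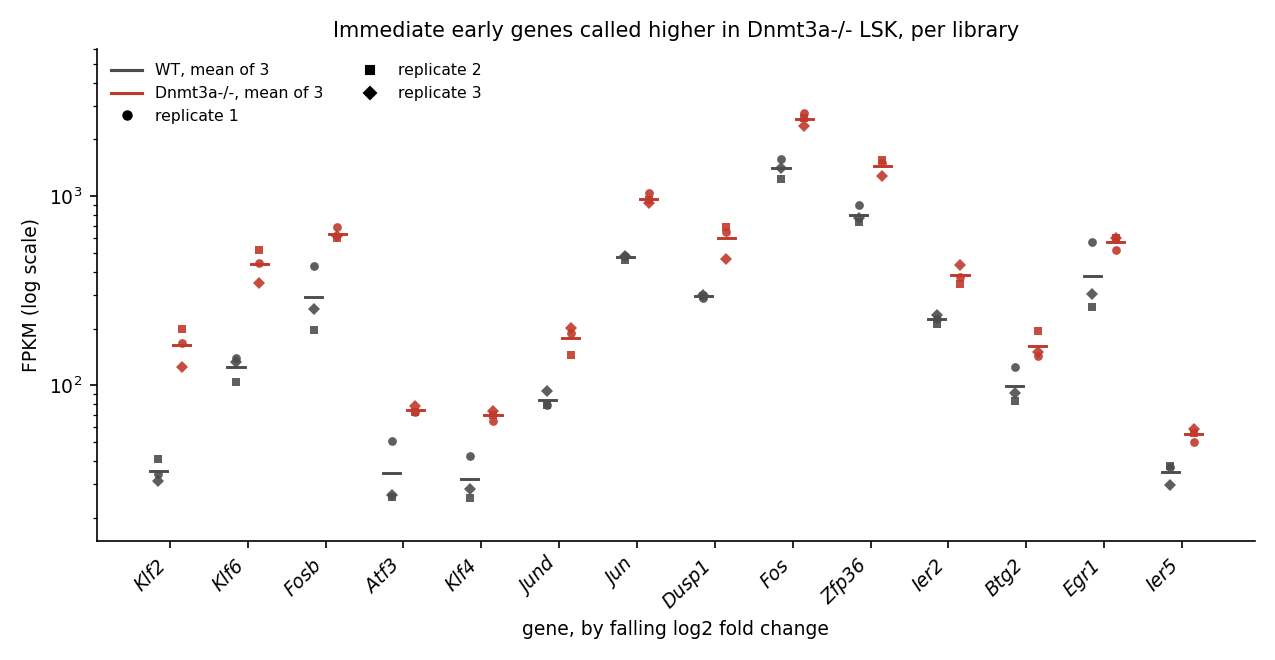
The FPKM of the 14 immediate early genes called higher is drawn for each of the 6 LSK libraries on a log axis, with a bar at the mean of each genotype and a marker shape for each replicate. The Dnmt3a-/- points lie above the WT points for every gene but Egr1, where WT replicate 1 reaches into the Dnmt3a-/- range, and WT replicate 1 is the highest WT library for Fosb, Atf3, Klf4, Btg2, Egr1, Klf6, Fos and Zfp36.

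One WT library carried more of these messages than the others. Egr1, a zinc finger factor of the same response, was at 572 FPKM in WT replicate 1 and at 261 and 304 FPKM in the other WT libraries, against 520.0, 599.7 and 605 FPKM in Dnmt3a-/-. It was called (log2 fold change 0.68, limma adjusted p = 0.98) but overlapped. Genes of the same list that overlapped in this way and were not called included Nr4a1, at 754, 248 and 454 FPKM in WT and 537, 403 and 649 FPKM in Dnmt3a-/-, and Nr4a2, Egr2, Egr3 and Maff. Without WT replicate 1 the count of called members was 22, without each other library it was 12 to 17, and in the fit of all 10 LSK libraries it was 2. Of the Bcor-/- Dnmt3a-/- libraries in that fit, 1 had Fosb at 25.4 FPKM and the other at 891 FPKM.

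Outside the list, Rhob, Spry1 and Moap1 rose with an adjusted p under 0.05. Rhob, a small GTPase that is itself quickly induced by stress, was at 75.5, 91.0 and 105 FPKM in WT and at 261, 251 and 214 FPKM in Dnmt3a-/- (log2 fold change 1.42, SE 0.13, limma adjusted p = 0.00448). Spry1, an inhibitor of receptor tyrosine kinase signalling, was at 24.4, 21.0 and 22.7 FPKM in WT and at 40.2, 35.3 and 40.8 FPKM in Dnmt3a-/- (log2 fold change 0.75, SE 0.097, limma adjusted p = 0.0449). Moap1, which binds the cell death effector Bax, was low, at 1.46, 1.10 and 1.22 FPKM in WT and at 4.199, 4.47 and 6.19 FPKM in Dnmt3a-/- (log2 fold change 1.38, SE 0.18, limma adjusted p = 0.0449). The groups did not overlap for any of the 3 genes. In MEP, Moap1 was at 2.67, 0.00044 and 0.00013 FPKM in WT and at 2.52, 2.91 and 0.0021 FPKM in Dnmt3a-/-. In LSK cells of Bcor-/- mice it was at 4.99e-05 and 0.451 FPKM. Its values thus moved between near 0 and several FPKM within a genotype, so its level is uncertain, and the reason was not tested. Tnfaip3, the NF-kB inhibitor A20, was at 71.8, 40.5 and 49.3 FPKM in WT and at 88.4, 109.9 and 106 FPKM in Dnmt3a-/- (log2 fold change 0.93, limma adjusted p = 0.32).

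A cyclic AMP response element (CRE, TGACGTCA, a palindrome that reads the same on both strands) was looked for in the promoter windows, since several immediate early genes are known to be driven through it. Of the 61 genes called higher 38 had a promoter entry, and 6 of them (15.8%) held the element: Btg2, Dusp1, Irf2bpl, Moap1, Plk2 and Zscan18. The share was 3.66% among the 8907 tested genes with an entry. It was 2.03% among all 27025 genes with a RefSeq promoter entry, tested or not. Of the 36 genes called lower with an entry 1, H2-Aa, held the element. The AP-1 site TGACTCA, sought on both strands and not overlapping the CRE, was in 5.26% of the genes called higher and 4.32% of the tested genes, and the CArG box of serum response factor in 5.26% and 1.48%. These are counts of letters in the window, not of bound sites, and the genes were chosen by their difference. The windows of Dusp1 (chr17:26508423-26508722), Btg2 (chr1:134079106-134079405) and Moap1 (chr12:102743612-102743911), all on the minus strand of GRCm38.p6, are shown with the CRE in capitals.
Dusp1: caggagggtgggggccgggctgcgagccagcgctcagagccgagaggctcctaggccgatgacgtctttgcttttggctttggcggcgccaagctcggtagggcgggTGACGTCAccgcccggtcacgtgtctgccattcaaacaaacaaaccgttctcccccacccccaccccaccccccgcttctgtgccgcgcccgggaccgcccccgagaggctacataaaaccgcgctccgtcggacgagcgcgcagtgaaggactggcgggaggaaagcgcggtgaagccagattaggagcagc
Btg2: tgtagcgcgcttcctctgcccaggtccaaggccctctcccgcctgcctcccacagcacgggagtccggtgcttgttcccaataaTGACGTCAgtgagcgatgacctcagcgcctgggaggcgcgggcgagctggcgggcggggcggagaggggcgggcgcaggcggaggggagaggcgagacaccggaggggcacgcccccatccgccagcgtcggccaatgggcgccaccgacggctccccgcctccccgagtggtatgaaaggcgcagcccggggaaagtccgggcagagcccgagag
Moap1: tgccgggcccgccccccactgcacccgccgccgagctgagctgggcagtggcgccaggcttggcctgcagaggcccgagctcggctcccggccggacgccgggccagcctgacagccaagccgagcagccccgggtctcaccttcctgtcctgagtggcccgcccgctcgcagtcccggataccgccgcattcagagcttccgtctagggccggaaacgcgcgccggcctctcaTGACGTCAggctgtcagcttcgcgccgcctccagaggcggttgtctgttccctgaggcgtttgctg
The element starts 143 bases before the annotated start in Dusp1, 166 in Btg2 and 16 in Moap1.

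MEP cells of the same mice gave the following values side by side. The MEP table was normalized separately and no test between the tables was made. In MEP 93 of 10431 tested genes were called (0.892%), 39 higher and 54 lower, none with a limma adjusted p under 0.05. Klf2 was at 4.76, 3.83 and 7.05 FPKM in WT MEP and at 49.99, 24.1 and 12.7 FPKM in Dnmt3a-/- MEP, with a log2 fold change of 2.10 beside 2.16 in LSK. The MEP groups did not overlap for it, as for 5.19% of all MEP genes in that direction, and it was called there too. Klf6, Rhob, Jund, Fos and Dusp1 were called higher in MEP with log2 fold changes of 1.09, 0.85, 0.79, 0.92 and 0.80, while Jun, at 0.50, was not. Of the immediate early list 34 genes were tested in MEP, 6 were called higher and none lower (0.374% of all MEP genes were called higher), 22 were above 0 and the median was 0.28. Egr1, Nr4a1, Egr2, Maff and Fosl2 were below 0 in MEP and above 0 in LSK, none of them called in MEP. Of the 61 genes called higher in LSK, 52 were tested in MEP, 44 of those had the same sign and 9 were called in the same direction. Of the 49 called lower, 33 were tested in MEP, 24 had the same sign and 3 were called. Among all 10211 genes tested in both, 4871 were above 0 in MEP. LSK and MEP came from the same mice and are not independent.

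**Figure D3:**
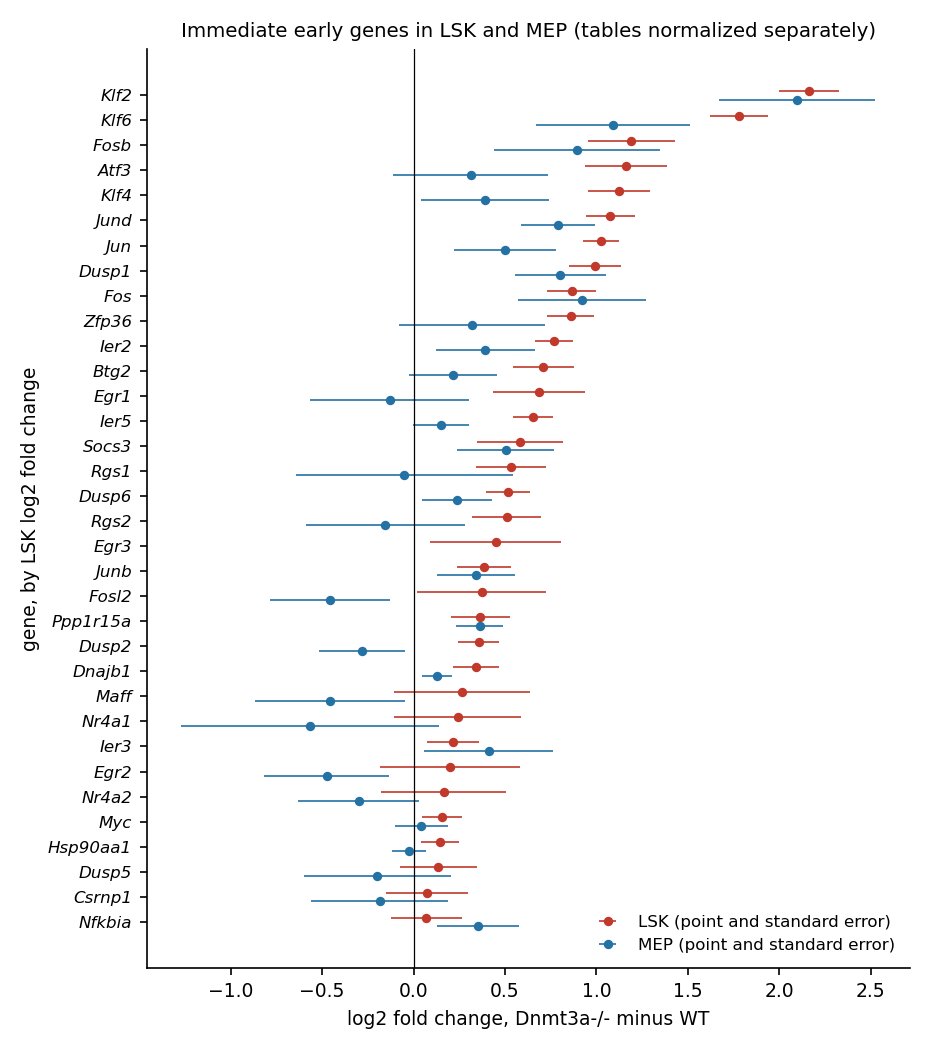
The log2 fold change, Dnmt3a-/- minus WT, is drawn with its standard error for the 34 immediate early genes tested in LSK, in LSK and, where tested, in MEP. All LSK points lie above 0, and MEP points lie on both sides of it with wider errors.

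The LSK libraries of the Bcor-null mice share no library with the comparison. Klf2 was at 47.7 and 43.8 FPKM in the Bcor-/- libraries and at 46.0 and 524 FPKM in the Bcor-/- Dnmt3a-/- libraries, and Klf6 was at 84.4 and 95.1 FPKM and at 20.05 and 447.5 FPKM. The double knockout libraries thus lay on both sides of the Bcor-/- libraries for Klf6. Of the 61 genes called higher, 14 were higher in both double knockout libraries than in both Bcor-/- libraries, where 3068 of all 11615 tested genes were. Of the 49 called lower, 2 were lower in both, where 3759 of all were.

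**Figure D4:**
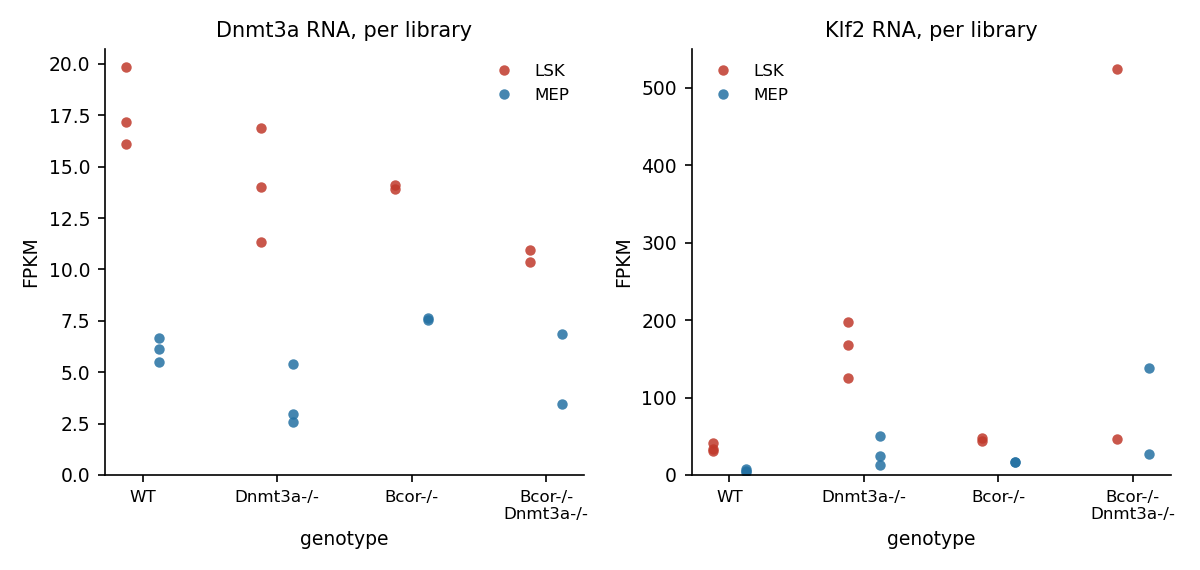
The FPKM of Dnmt3a (left) and of Klf2 (right) is drawn for every LSK and MEP library by genotype, with 3 libraries for WT and Dnmt3a-/- and 2 for each Bcor-null genotype. The Dnmt3a ranges of the WT and Dnmt3a-/- LSK libraries overlap, while Klf2 is higher in all Dnmt3a-/- libraries than in all WT libraries of the same cell type.

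Mature neutrophil markers were the largest group among the genes called lower. Of 17 tested markers 7 were called lower (0.422% of all tested genes were) and none higher, 15 were below 0 and the median log2 fold change was -0.72. The 7 did not overlap between the groups, where 4.91% of all tested genes did so in that direction. None had an adjusted p under 0.05. Camp, the antimicrobial peptide cathelicidin, was at 136, 723 and 110.1 FPKM in WT and at 65.0, 52.7 and 48.5 FPKM in Dnmt3a-/- (log2 fold change -1.99, SE 0.58, limma adjusted p = 0.98). Ngp, a neutrophil granule protein, was at 169, 814 and 128 FPKM in WT and at 122, 94.8 and 67.7 FPKM in Dnmt3a-/- (log2 fold change -1.49, limma adjusted p = 0.98). S100a9, a subunit of calprotectin, was at 801, 3736 and 735 FPKM in WT and at 535, 652 and 527 FPKM in Dnmt3a-/- (log2 fold change -1.19, limma adjusted p = 0.98). WT replicate 2 was the highest library for each of these genes, several times above the other WT libraries, and the other WT libraries were still above all Dnmt3a-/- libraries. Lcn2, an iron-sequestering granule protein, Chil3, a chitinase-like protein, and Ifitm6, a membrane protein of myeloid cells, had log2 fold changes of -1.60, -1.61 and -1.54, and Cxcr2, the receptor that guides neutrophils, -0.61. Over the alternatives run, log2 fold changes ranged from -2.49 to -1.14 for Camp, -2.00 to -0.67 for Ngp and -1.60 to -0.43 for S100a9. They ranged from -1.95 to -0.94 for Lcn2, -2.11 to -0.78 for Chil3, -1.83 to -1.01 for Ifitm6 and -0.84 to -0.43 for Cxcr2. Without WT replicate 2 they were -1.14 for Camp and -0.78 for Chil3. S100a9 was no longer called in 9 of its 15 alternatives.

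The summed FPKM of the neutrophil markers was 2265, 10678 and 2044 in WT and 1565, 1872 and 1532 in Dnmt3a-/-. Without WT replicate 2, 5 of the 17 markers were called and the median was -0.27, so the difference was smaller without that library and kept its direction. Without Dnmt3a-/- replicate 3, 3 markers were called, without Dnmt3a-/- replicate 2, 4, and without WT replicate 1, 12. S100a8 and Ltf, other granule and cytosol proteins of neutrophils, overlapped between the groups and were not called. In bulk RNA, fewer cells of a type and less RNA per cell cannot be told apart, and how far stray mature cells in the sort contribute was not tested. In MEP none of the 14 tested markers was called, where 0.892% of all MEP genes were in either direction, and the median was -0.15. That count says little about these markers.

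**Figure D5:**
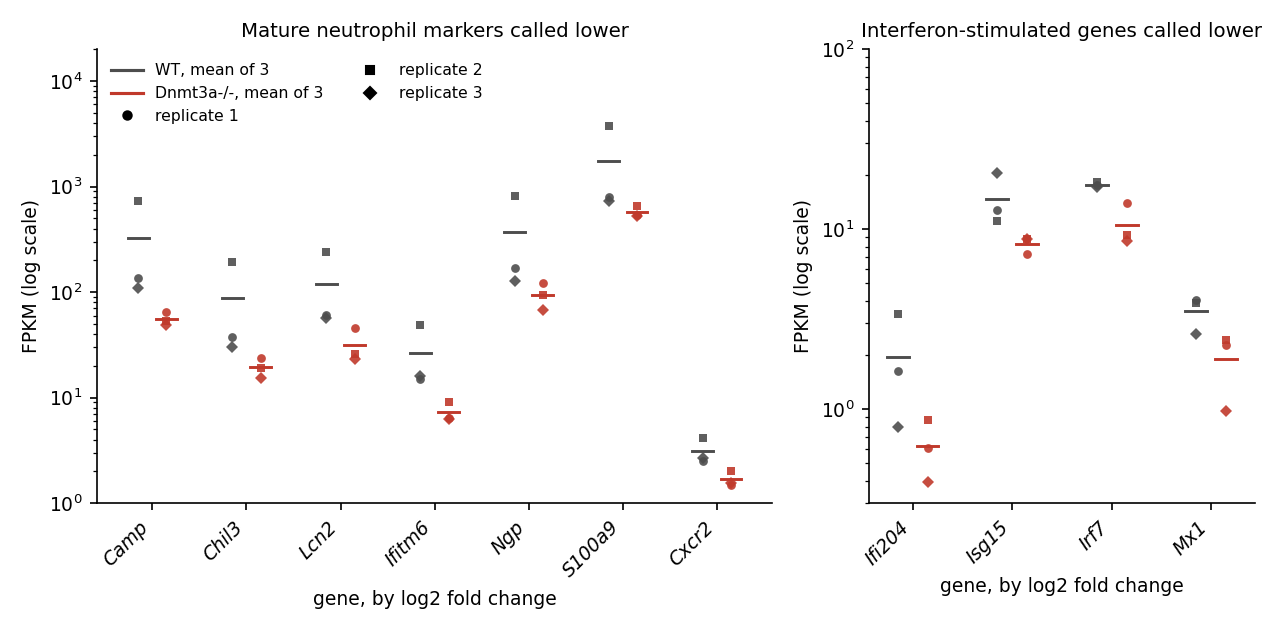
The FPKM of the 7 mature neutrophil markers (left) and of the 4 interferon-stimulated genes (right) called lower is drawn for each LSK library on log axes, with a bar at each genotype's mean and a marker shape for each replicate. WT replicate 2 is several times above the other libraries for Camp, Chil3, Lcn2, Ifitm6, Ngp and S100a9, and it is not set apart for Irf7 and Mx1.

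The promoter windows of Camp (chr9:109849407-109849706, minus strand) and Ngp (chr9:110419558-110419857, plus strand), RefSeq and GRCm38.p6, are shown beside those of Klf2 and Klf6 above, again with CpG in capitals, because the 2 directions of change differed in this feature.
Camp: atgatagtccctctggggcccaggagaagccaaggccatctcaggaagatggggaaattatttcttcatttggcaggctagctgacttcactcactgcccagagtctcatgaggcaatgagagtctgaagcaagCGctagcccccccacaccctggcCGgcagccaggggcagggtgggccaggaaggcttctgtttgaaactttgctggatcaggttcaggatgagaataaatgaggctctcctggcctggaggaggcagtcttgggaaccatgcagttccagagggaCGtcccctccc
Ngp: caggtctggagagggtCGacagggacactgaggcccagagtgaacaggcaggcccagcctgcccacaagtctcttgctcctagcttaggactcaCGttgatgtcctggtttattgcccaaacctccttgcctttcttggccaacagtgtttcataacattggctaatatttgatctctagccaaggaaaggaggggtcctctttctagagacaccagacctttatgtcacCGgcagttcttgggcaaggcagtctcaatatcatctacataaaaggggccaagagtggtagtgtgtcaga
Each holds 3 CpG. Over the 36 of 49 genes called lower with an entry, the median window held 4.5 CpG, against 21 over the tested genes (quartiles 13 and 28) and 23.5 over the 38 genes called higher with an entry. The genes with few CpG include the neutrophil markers that WT replicate 2 carries, and the part of that library in the difference was not tested.

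Of 46 tested granulocyte and monocyte genes, which share 9 symbols with the neutrophil list, 4 were called lower (0.422% of all tested genes were) and 39 were below 0, with a median of -0.26. Without WT replicate 2 the count called lower was 2 and the median -0.011. Besides Camp, Ngp and S100a9 the called gene was Lyz2, the lysozyme of myeloid cells, at 305, 602 and 261 FPKM in WT and 214, 247 and 233 FPKM in Dnmt3a-/-, and the 1 called higher was Klf4. All 17 tested macrophage markers were below 0 with a median of -0.80, but none was called. C1qb, a complement component of tissue macrophages, was at 27.9, 64.8 and 9.55 FPKM in WT and at 4.14, 8.32 and 19.4 FPKM in Dnmt3a-/-, and overlapped. Without WT replicate 3 the count called lower was 14 and without WT replicate 2 it was 0, with a median of -0.27. Mpo, the myeloperoxidase of early granulocyte precursors, was at 788, 1532 and 785 FPKM in WT and 644, 1088 and 1019.8 FPKM in Dnmt3a-/-, and Spi1, the myeloid factor PU.1, at 79.5 to 83.5 and 68.6 to 80.7 FPKM. Neither was called.

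Of 60 tested interferon-stimulated genes, 4 were called lower (0.422% of all tested genes were) and none higher, 48 were below 0 and 12 did not overlap in the lower direction (4.91% of all tested genes), with a median log2 fold change of -0.16. Irf7, the factor that amplifies the interferon response, was at 17.6, 18.4 and 17.1 FPKM in WT and at 13.9, 9.33 and 8.62 FPKM in Dnmt3a-/- (log2 fold change -0.71, SE 0.16, limma adjusted p = 0.502). Isg15, a ubiquitin-like modifier, was at 12.7, 11.1 and 20.4 FPKM in WT and at 7.25, 8.85 and 8.80 FPKM in Dnmt3a-/- (log2 fold change -0.72, limma adjusted p = 0.98). Mx1, an antiviral GTPase whose promoter drives the Cre of this model, was at 4.03, 3.88 and 2.60 FPKM in WT and at 2.28, 2.43 and 0.973 FPKM in Dnmt3a-/- (log2 fold change -0.66, limma adjusted p = 0.98). These 3 genes did not overlap between the groups, whereas Ifi204, a DNA sensor, did. The count ranged from 2 without WT replicate 1, WT replicate 2 or Dnmt3a-/- replicate 3 to 7 without WT replicate 3, and was 0 with a fold change above 2. In MEP 44 were tested, 41 were below 0, 6 were called lower (0.518% of all MEP genes were), 14 did not overlap in that direction (5.16% of all MEP genes) and the median was -0.29. Irf7 was called there with a log2 fold change of -0.70, at 11.2, 12.7 and 7.12 FPKM in WT and 5.71, 6.63 and 5.204 FPKM in Dnmt3a-/-.

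Of 62 tested stem cell genes only Egr1, which also stands on the immediate early list, was called, a share near the 0.947% of all tested genes called in either direction, and the median was 0.038. Kit was at 164, 148 and 174 FPKM in WT and 184, 171 and 155 FPKM in Dnmt3a-/-, and Runx1, a master factor of blood stem cells, at 28.1, 27.7 and 24.8 and at 28.2, 29.2 and 27.2 FPKM. Gata2, a stem and progenitor factor, was at 54.7, 54.1 and 74.5 FPKM in WT and at 74.2, 65.1 and 73.7 FPKM in Dnmt3a-/-, and Gata1, the erythroid and megakaryocyte factor, at 7.83, 12.1 and 12.9 and at 11.4, 13.7 and 14.0 FPKM. All 4 overlapped and none was called. Flt3, the receptor of lymphoid-primed progenitors, had a log2 fold change of 0.023, whose sign depended on the setting.

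Of 34 tested megakaryocyte genes 30 were above 0 (51.4% of all tested genes were), with a median of 0.16 and 6 without overlap in the higher direction (4.67% of all tested genes), and 1 was called higher (0.525% of all tested genes were): Pf4, platelet factor 4, at 34.9, 50.8 and 43.3 FPKM in WT and at 62.2, 64.7 and 68.0 FPKM in Dnmt3a-/- (log2 fold change 0.60, limma adjusted p = 0.46). In MEP 24 of 33 tested megakaryocyte genes were below 0. Of 41 tested erythroid genes 29 were above 0, with a median of 0.14, and Rhag, a red cell membrane protein, was called at 1.34, 2.14 and 2.71 FPKM in WT and 2.58, 4.66 and 4.73 FPKM in Dnmt3a-/-, with overlap. In MEP 42 of 44 tested erythroid genes were above 0, against 48.1% of all MEP genes, and the median was 0.15. Of 34 tested lymphoid priming genes 3 were called higher, Pax5, Igll1 and Tcf7, the first 2 also on the B and plasma cell list. Pax5, which commits cells to the B lineage, was at 0.737, 0.630 and 0.468 FPKM in WT and at 2.31, 1.25 and 1.60 FPKM in Dnmt3a-/- (log2 fold change 0.74, limma adjusted p = 0.98), and Igll1, a part of the surrogate light chain, at 4.65, 18.3 and 2.78 and at 17.4, 17.5 and 16.9 FPKM, with overlap through WT replicate 2. Without Dnmt3a-/- replicate 1 none of the lymphoid priming genes was called, and without WT replicate 2, 8 were.

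Of 33 tested p53 and Bcl2 family genes 2 were called higher (0.525% of all tested genes were). Mcl1, an antiapoptotic Bcl2 relative, was at 213, 146 and 156 FPKM in WT and at 253, 301 and 298 FPKM in Dnmt3a-/- (log2 fold change 0.73, SE 0.14, limma adjusted p = 0.31). Plk2, a kinase induced by p53, was at 27.9, 16.5 and 20.7 FPKM in WT and at 33.1, 39.8 and 36.8 FPKM in Dnmt3a-/- (log2 fold change 0.75, limma adjusted p = 0.502). Neither overlapped. Trp53 and its target Mdm2 had log2 fold changes of 0.048 and 0.065 and overlapped. Of 54 tested cell cycle genes none was called, 38 were below 0 with a median of -0.058, and 10 did not overlap in the lower direction (4.91% of all tested genes). None was called among 11 HoxA and HoxB genes, 26 imprinted genes, 8 germ line genes, 10 T and NK cell markers, 11 mast cell and basophil markers and 4 sex-linked genes tested, whose medians were -0.024, -0.0099, 0.13, 0.098, 0.015 and 0.11. With 0.947% of all tested genes called in either direction, the absence of calls says little about lists of this size, the cell cycle list included. Of 57 listed germ line genes, a class often held silent by DNA methylation, 22 were listed at 0 in all 6 libraries.

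Markers of stroma pointed in both directions at low levels. Of 10 tested stromal and endothelial markers Col1a1 and Col1a2, chains of bone collagen, were called higher and Cxcl12, the stem cell niche chemokine, lower, where 0.525% of all tested genes were called higher and 0.422% lower. Col1a1 was at 0.0422 FPKM in 1 WT library and listed at 0 in the other 2, and at 5.59, 0.0409 and 2.43 FPKM in Dnmt3a-/-. Cxcl12 was at 2.43, 6.56 and 5.24 FPKM in WT and at 1.22, 2.05 and 1.75 FPKM in Dnmt3a-/-, without overlap. Of 16 tested B and plasma cell markers 12 were above 0, with a median log2 fold change of 0.36, and Pax5 and Igll1, described above, were called higher. Without WT replicate 2 the count called higher was 9 and the median 0.71. The 1 called lower was H2-Aa, an MHC class II chain, at 137, 250.2 and 104 FPKM in WT and 96.7, 79.9 and 105 FPKM in Dnmt3a-/-. It overlapped, and its log2 fold change of -0.71 was -0.35 without WT replicate 2.

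Among the other genes with the largest decreases, Xcl1, Pltp and Sept5 were at low levels in every library. Xcl1, a chemokine of lymphocytes, was at 4.05, 3.90 and 5.18 FPKM in WT and at 0.556, 2.79 and 2.003 FPKM in Dnmt3a-/- (log2 fold change -1.04, limma adjusted p = 0.98). Lgals3, galectin-3 of myeloid cells, was at 12.2, 29.5 and 15.2 FPKM in WT and at 7.18, 8.84 and 9.63 FPKM in Dnmt3a-/-. Pltp, a phospholipid transfer protein, was at 1.62, 4.83 and 0.741 FPKM in WT and at 0.226, 0.227 and 0.509 FPKM in Dnmt3a-/-, and Sept5, a septin, at 2.42, 8.58 and 2.06 and at 0.585, 1.26 and 1.83 FPKM. WT replicate 2 was the highest library for Lgals3, Pltp and Sept5 and not for Xcl1. Xlr, an X-linked lymphocyte-regulated gene, was at 0.685, 1.04 and 0.549 FPKM in WT and at 3.33, 1.67 and 2.38 FPKM in Dnmt3a-/- (log2 fold change 0.96, limma adjusted p = 0.68). It belongs to a multigene family with near-identical copies, so its reads may be split among them.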

How the data were processed

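RNA-seq libraries of polyA RNA from sorted LSK cells were deposited as 1 table of FPKM values per gene. The authors made these FPKM values, and the submitters' processing notes name STAR 2.5.1b, SAMtools 1.9, Cufflinks 2.2.1 and build mm9. Gene annotation, read strand and any scaling between libraries are not given in the sources used here, so overlapping, antisense and near-identical genes may share reads. No column was left unmapped (0 columns not used).

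From the deposited FPKM values, log2(FPKM + 1) was computed and genes averaging 1 FPKM or more across the 6 libraries were tested with limma 3.58.1 in R 4.3.3 (mean-variance trend, moderated by 4.91 prior degrees of freedom, two-sided) with Benjamini-Hochberg adjustment over all 11615 genes. The study's methods give the thresholds of p under 0.05 and a fold change above 1.5, but no test. The 21 gene lists, the members and the rule for named genes were chosen with earlier results of these data known. That rule took Dnmt3a, the 12 called genes with the largest change in each direction among those without overlap and outside the small RNA genes, up to 4 called genes with the smallest p per list, and 12 fixed genes. Spry1, Snora64, the other list members, the other genes with a CRE and the genes of the closing observations were named after their values were seen. The fits were tested on simulated data.

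Relative depth was taken from the spacing of FPKM below 0.2, which are multiples of what 1 fragment is worth. Promoter windows and sequences are from RefSeq (GRCm38.p6), matched by symbol for 8907 of the tested genes. They were not placed on the mm9 coordinates of the files. Python 3.11.15 with matplotlib 3.10.9 drew the figures. The alternatives were quantile normalization, median centring, a pseudocount of 0.1, a level filter at 5 FPKM or none, a fit of all 10 LSK libraries, no trend, array weights, a replicate block, a fold change above 2, adjusted p, and each library left out. The labels give no batch or date. Values of some genes are not reported here.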

Additional observations from a re-analysis of the deposited data

How the results depend on the processing

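Against 61 genes called higher and 49 lower, the fit of all 10 LSK libraries gave 26 and 28, a fold change above 2 gave 17 and 13, and an adjusted p under 0.05 gave 8 and 1. A minimum of 5 FPKM gave 22 lower. Leaving out 1 library gave 57 to 92 higher (92 without WT replicate 1) and 40 to 132 lower (101 without WT replicate 1, 132 without WT replicate 3). The 9 genes with an adjusted p under 0.05 became 1 without a filter, 15 at a minimum of 5 FPKM, 0 in the fit of all 10 libraries, and 5 to 15 without 1 library (5 without WT replicate 3, 15 without WT replicate 1). In the fit of all 10 libraries Klf2 had an unadjusted limma p of 0.0116 and Klf6 one of 0.0683. The list counts were added after seeing the data. The 14 immediate early genes became 2 in the fit of all 10 libraries, 7 at a fold change above 2, 4 by adjusted p, and 12 to 22 without 1 library. Their median log2 fold change stayed above 0 in all 18 fits and counts, from 0.36 to 0.74. The 7 neutrophil markers became 4 without a filter, 0 by adjusted p, and 3 to 12 without 1 library. The 4 interferon-stimulated genes became 2 at a minimum of 5 FPKM and in the fit of all 10 libraries, 0 at a fold change above 2 and by adjusted p, and 2 to 7 without 1 library.

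The labels do not state whether mice with the same replicate number were paired. The deviations of same-numbered libraries from their group means correlated at 0.019, 0.056 and -0.031. Those of differently numbered libraries correlated at -0.18 to 0.17. With 3 libraries per group these values cannot decide whether the mice were paired. With the replicate number as a replicate block 65 genes were called higher and 67 lower, 110 of them shared with the fit without it, and Dnmt3a had a log2 fold change of -0.32, under the fold threshold.

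Small differences of genes that were not called changed sign. Leaving out 1 library put Dnmt1 between -0.071 and 0.054 (0.024 without WT replicate 2, 0.054 without Dnmt3a-/- replicate 2). Flt3 was at -0.040 with array weights, and between -0.059 and 0.11 without 1 library (-0.051 without WT replicate 3, -0.059 without Dnmt3a-/- replicate 1). Mpo was between -0.30 and 0.18 (0.18 without WT replicate 2, 0.10 without Dnmt3a-/- replicate 1), and Trp53 was at -0.0078 and -0.0043 without the same libraries. Where a value changed, the cause was not tested. Genes near 1 FPKM rest on the fewest fragments, and their values are the least precise.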

Other observations

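Histone messages were another group among the genes called higher, noticed after the calls were made. Of 28 tested genes with symbols Hist1 to Hist4, 6 were called higher and none lower (0.525% of all tested genes were called higher), while 17 were above 0 and the median log2 fold change was only 0.086. Hist1h2bc was at 49.1, 40.2 and 43.3 FPKM in WT and at 68.1, 83.5 and 78.9 FPKM in Dnmt3a-/- (log2 fold change 0.78, limma adjusted p = 0.052). Hist1h2bg was at 16.98, 18.3 and 19.2 FPKM in WT and at 38.9, 23.3 and 36.7 FPKM in Dnmt3a-/-, and Hist1h1c, a linker histone, at 24.5, 38.4 and 40.0 and at 52.2, 47.1 and 57.9 FPKM, both without overlap. Hist3h2a, with a log2 fold change of 0.64, was also called higher in MEP at 0.86. Most histone messages carry no polyA tail and the libraries are of polyA RNA, so these FPKM cover only the tailed forms. No gene of the cell cycle list was called, where 0.947% of all tested genes were in either direction.

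Cd69, Nfkbiz and Dyrk3, which stand on none of the lists, were called higher. Cd69, a membrane protein that appears early on activated cells and holds them in the tissue, was at 115, 95.0 and 111.5 FPKM in WT and at 164, 235 and 174 FPKM in Dnmt3a-/- (log2 fold change 0.81, limma adjusted p = 0.17). Nfkbiz, an inducible regulator of NF-kB, was at 63.6, 34.8 and 42.6 FPKM in WT and at 77.0, 87.8 and 75.5 FPKM in Dnmt3a-/-, and Dyrk3, a kinase of stress granules, at 20.3, 17.9 and 18.5 and at 29.3, 30.1 and 36.2 FPKM, with limma adjusted p of 0.63 and 0.067. None of the 3 genes overlapped.

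Of 38 tested small RNA genes 4 were called (0.947% of all tested genes were). Snora64, a small nucleolar RNA, was listed at 0 in all WT libraries and at 275, 216 and 83.4 FPKM in Dnmt3a-/-. In MEP it was listed at 0 in WT replicates 1 and 2 and Dnmt3a-/- replicate 1, and at 101, 90.8 and 107 FPKM in the other 3 libraries. A few fragments give a high FPKM for so short a gene, and a listed 0 can be a failed estimate. Eno1b was at 13.6 and 11.4 FPKM in Dnmt3a-/- replicates 1 and 2, listed at 0 in replicate 3, and at 0.137 FPKM or listed at 0 in WT, while Eno1, a near-identical copy, was at 1.47 and 1.47 FPKM in the first 2 libraries and at 6.05, 5.2005 and 5.72 FPKM in WT, so reads of the pair may be split in different ways.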
